A study of Mus musculus with 12 samples.

Results

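The NR4A family of orphan nuclear receptors was examined in a mouse colitis experiment through its members Nr4a1, Nr4a2 and Nr4a3, which are 3 of the 54532 genes in the deposited count table. The members were chosen by gene symbol alone, and all 12 libraries were used. RNA-Seq covered colonic tissue from wild-type male C57BL/6J mice, 5 weeks old at the start, in 4 groups of 3 libraries. Control mice were left without dextran sodium sulfate (DSS), which injures the lining of the colon when drunk. Mice of the model group drank DSS and received no drug (3% in the acute colitis protocol). The Rhy group received DSS and rhynchophylline (Rhy), an alkaloid of Uncaria, and the DXM group received DSS and the glucocorticoid dexamethasone (DXM) at 4 mg/kg. Rhy was used at 2, 4 and 8 mg/kg in the experiment, and the labels do not give the dose of the sequenced mice. The labels name separate samples and do not say how they were housed or processed, so a p-value measures the spread between these libraries.

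NR4A receptors are transcription factors without a known classical hormone ligand. They are controlled mainly by how much of them is made, and their genes are immediate early genes, transcribed within minutes of a signal such as calcium, cAMP, a growth factor or mechanical stress. Nr4a1 (Nur77) is known for restraining inflammatory gene expression in macrophages and T cells, Nr4a2 (Nurr1) for its role in dopamine neurons, and Nr4a3 (Nor1) for roles in muscle, blood and vessel cells. The study proposed that Rhy acts through the aryl hydrocarbon receptor (AhR) and NR4A1, so the comparison of Rhy with model for Nr4a1 bears on its question.

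In mm10/GRCm38, the genes lie at chr15:101254269-101274795 on the plus strand (Nr4a1, ENSMUSG00000023034), chr2:57106830-57124003 on the minus strand (Nr4a2, ENSMUSG00000026826) and chr4:48045153-48086447 on the plus strand (Nr4a3, ENSMUSG00000028341). Their merged exons measure 3509, 4059 and 5987 bases. All 3 gene models match GENCODE M21, and 0 other genes of the table overlap them.

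The promoters are shown because these genes are textbook targets of the cAMP response element binding protein, CREB, and because the study links Nr4a1 to AhR. The RefSeq promoters (GRCm38.p6) were read in the direction of transcription, ending at the base before the RefSeq start. Capitals mark each copy of the short cAMP response element (CRE) motif, TGACG, or CGTCA on the other strand. The Nr4a1 stretch, chr15:101266596-101266845 on the plus strand, lies within the gene model, in an intron of its longest form and outside every annotated exon. The Nr4a2 stretch, chr2:57124004-57124253 on the minus strand, and the Nr4a3 stretch, chr4:48045055-48045152 on the plus strand, lie just upstream of their gene models. Only 98 bases are printed for Nr4a3, since the next 152 bases before its RefSeq start lie in a GENCODE exon.
Nr4a1: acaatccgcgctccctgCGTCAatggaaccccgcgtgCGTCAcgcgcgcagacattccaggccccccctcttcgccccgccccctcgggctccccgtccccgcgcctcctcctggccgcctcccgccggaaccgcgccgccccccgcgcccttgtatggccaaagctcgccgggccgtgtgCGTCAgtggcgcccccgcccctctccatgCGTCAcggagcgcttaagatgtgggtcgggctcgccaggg
Nr4a2: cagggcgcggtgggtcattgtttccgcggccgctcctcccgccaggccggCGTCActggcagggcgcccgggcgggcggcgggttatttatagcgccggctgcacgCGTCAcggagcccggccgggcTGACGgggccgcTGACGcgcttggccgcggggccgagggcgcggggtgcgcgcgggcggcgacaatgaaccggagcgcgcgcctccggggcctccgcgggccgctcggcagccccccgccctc
Nr4a3: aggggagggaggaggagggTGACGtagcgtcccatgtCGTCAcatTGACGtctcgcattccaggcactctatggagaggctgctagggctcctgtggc
Each of the 3 promoters held 4 copies of the short CRE motif within 250 bases of the RefSeq start, of which 3 stand in the printed part of Nr4a3. Of 32851 RefSeq promoters cut to the same 250 bases, 17.8% held at least 1 copy and 0.137% held at least 4. In Nr4a1 the copies began 233, 213, 69 and 40 bases before the start, in Nr4a2 200, 144, 123 and 111 bases, and in Nr4a3 231, 213, 205 and 147 bases. The full CRE, TGACGTCA, was not present in any of these windows and occurred in 1.55% of all promoters.

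The AhR core motif GCGTG, or CACGC on the other strand, occurred 2 times in Nr4a1, 1 time in Nr4a2 and 1 time in Nr4a3. It was common, with at least 1 copy in 28.2% of promoters and at least 2 copies in 8.63%. In Nr4a1, 1 of the 2 copies shared bases with a short CRE motif, as did the copy in Nr4a2. The NBRE, AAAGGTCA, which NR4A receptors bind as monomers, was absent from these windows and occurred in 1.34% of promoters. The CArG box, the motif of serum response factor, was also absent and occurred in 1.47%. TATAAA, searched on both strands, was present in Nr4a2 and in 12.4% of promoters. These matches describe letters in a window and do not show binding.

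Total counts ran from 14346478 to 17749716 per library, and 16904 genes, the 3 members included, passed the filter on low counts. The 10 colon epithelium markers were detected in every group, with a summed level of 11037 to 35045 CPM (counts scaled to library size, with edgeR's TMM factors) per library. Model 1 and model 2 resembled each other more closely than the other pairs did, with a dispersion between them of 0.00202 against 0.0620 to 0.364 in the 65 other pairs. The labels list them as separate samples and do not say whether they come from separate mice. Results of the members were also computed with their counts summed into 1 library. The comparisons of gene lists between groups were not. DXM 3 was the highest library for 11.8% of all genes tested and had the lowest summed epithelium markers. Comparisons that include the DXM group are given with and without DXM 3. In the other comparisons DXM 3 still enters the spread, since all 12 libraries share 1 fit.

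Nr4a1 was the main family member in every library. On the FPKM scale, which divides by gene length so that genes can be compared, it made up 77.6% to 92.0% of the family's summed level. The summed family level ran from 4.08 FPKM in Rhy 1 to 71.5 FPKM in DXM 3, with a median of 8.28. Nr4a2 made up 5.58% to 17.9% and Nr4a3 1.79% to 12.3%. Nr4a3 exceeded Nr4a2 in 2 of the 12 libraries, DXM 1 and DXM 3, where the ratio of Nr4a3 to Nr4a2 was 1.53 and 1.06.

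Among 49 nuclear receptor genes of the mouse, all in the table, 40 passed the filter, and Nr0b1 and Nr2e1 had no count. The highest mean levels were those of Hnf4a (140 FPKM), a master regulator of gut epithelium, Esrra (86.5 FPKM), a regulator of mitochondrial genes, and Vdr (50.9 FPKM), the vitamin D receptor. Nr4a1 ranked 17 by mean level (11.8 FPKM), Nr4a2 ranked 28 (1.16 FPKM) and Nr4a3 ranked 29 (0.911 FPKM). Within single libraries, Nr4a1 ranked from 25 in Rhy 1 to 9 in Rhy 3 and 2 in DXM 3. The members were more prominent for their spread than for their level. By the SD of log2 CPM over the 12 libraries, Nr4a3 ranked 4, Nr4a1 ranked 5 and Nr4a2 ranked 10 of the 40 receptors. Without DXM 3 these ranks were 4, 12 and 18.

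**Figure D1:**
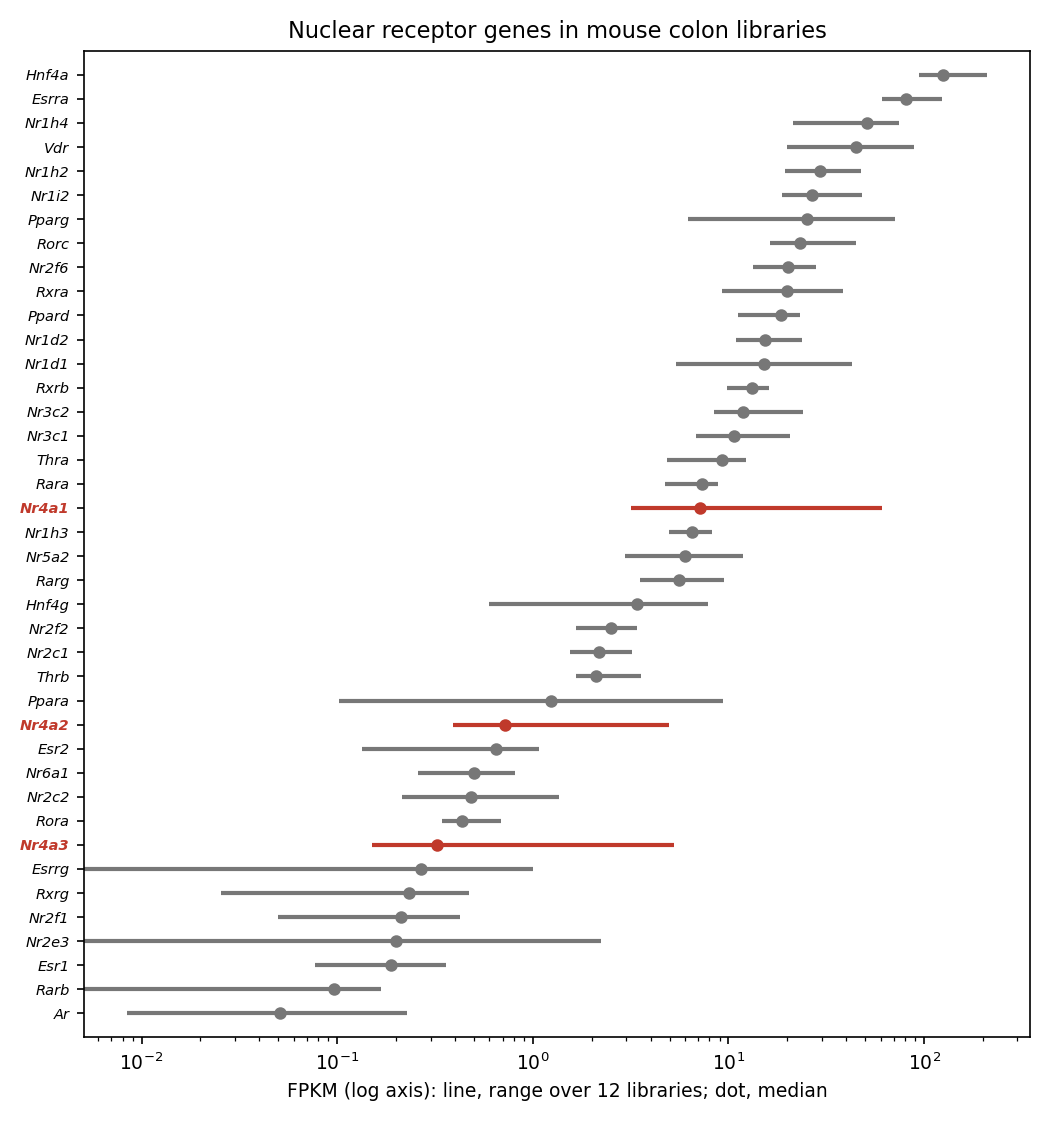
Levels of the 40 nuclear receptor genes that passed the filter, in FPKM on a log axis, with a dot at the median and a line from the lowest to the highest of the 12 libraries; a line that reaches the left edge goes down to 0. The family members, in red, have middle or low medians and long lines to the right, and Nr4a1 reaches 61.3 FPKM in DXM 3.

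Nr4a1 was measured by 131 to 4370 reads per library. Its level was 25.2, 18.6 and 39.9 CPM in control 1 to 3, and 15.3, 12.5 and 13.9 CPM in model 1 to 3. It was 11.2, 33.8 and 63.5 CPM in Rhy 1 to 3, and 25.4, 25.5 and 221 CPM in DXM 1 to 3. The model libraries were tightly grouped and all below the control libraries, the Rhy libraries were spread on both sides of the model group, and DXM 3 stood far above every other library while DXM 1 and DXM 2 lay within the control range. The means were 27.9 ± 10.9 CPM in control, 13.9 ± 1.39 in model, 36.2 ± 26.2 in Rhy and 90.7 ± 113 in DXM (SD, n = 3 each).

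Nr4a2 was measured by 26 to 410 reads. Its level was 4.27, 1.81 and 2.80 CPM in control, and 2.70, 1.64 and 3.51 CPM in model. It was 2.996, 3.79 and 7.47 CPM in Rhy, and 2.95, 2.89 and 20.8 CPM in DXM. The control and model libraries covered nearly the same range, and Rhy 3 and DXM 3 stood above the rest. The means were 2.96 ± 1.24, 2.62 ± 0.941, 4.75 ± 2.39 and 8.87 ± 10.3 CPM in control, model, Rhy and DXM (SD, n = 3 each).

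Nr4a3 was measured by 12 to 644 reads, and the 12 in control 1 were the lowest count of any member. Its level was 0.899, 0.974 and 1.81 CPM in control, and 3.42, 2.00 and 1.31 CPM in model. It was 1.11, 4.51 and 9.56 CPM in Rhy, and 6.65, 1.98 and 32.6 CPM in DXM. The 3 control libraries were among the lowest, and every DXM library lay above every control library. The means were 1.23 ± 0.507, 2.24 ± 1.08, 5.06 ± 4.25 and 13.7 ± 16.5 CPM in control, model, Rhy and DXM (SD, n = 3 each). Counting error alone is wide at these depths, since the 12 reads of control 1 give an exact 95% Poisson interval of 0.464 to 1.57 CPM, against 30.1 to 35.2 CPM for DXM 3.

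**Figure D2:**
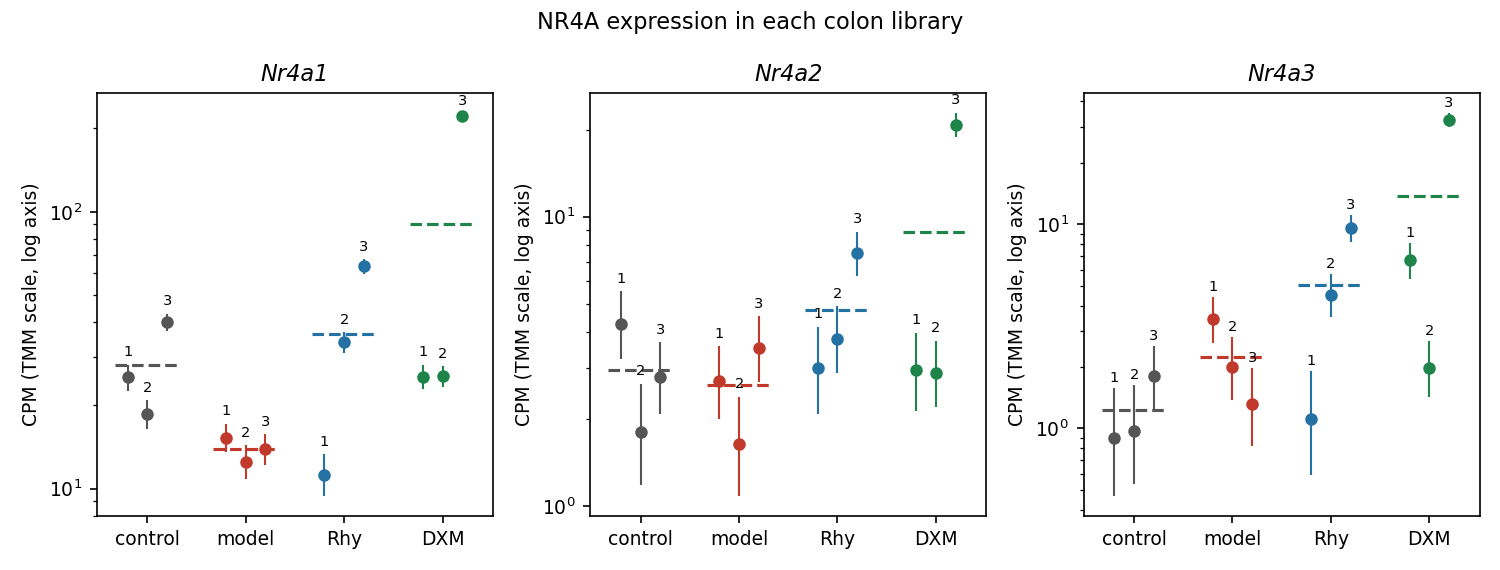
Level of each member in every library, in CPM on a log axis, with the replicate number above each point, an exact 95% Poisson interval for counting error as a bar, and the group mean as a dashed line. DXM 3 is the highest point and Rhy 3 the next highest in all 3 panels, and the model points of Nr4a1 form a tight cluster between 12.5 and 15.3 CPM.

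DXM 3 was the highest library for all 3 members, and Rhy 3 was the next. DXM 3 exceeded Rhy 3 by 3.49-fold for Nr4a1, 2.78-fold for Nr4a2 and 3.41-fold for Nr4a3. It exceeded the median of the 11 other libraries by 8.77-, 7.04- and 16.5-fold. Among the 16904 genes, only 9, 20 and 13 had a larger ratio of DXM 3 to the next highest library than Nr4a1, Nr4a2 and Nr4a3.

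The order of the groups depended on whether the mean or the median was read. By mean, Nr4a1 and Nr4a2 both ran model, control, Rhy, DXM from low to high, and Nr4a3 ran control, model, Rhy, DXM. By median, the Rhy group was highest for Nr4a1 (33.8 CPM against 25.5 in DXM) and for Nr4a2 (3.79 CPM against 2.95 in DXM), while DXM remained highest for Nr4a3 (6.65 CPM against 4.51 in Rhy). No neighbours in these orders differed past the threshold of an adjusted p of 0.05. Of the 18 tests of a member between 2 groups, 0 passed, the smallest adjusted p of edgeR's quasi-likelihood test being 0.134, and 4 had an unadjusted p under 0.05. Across the 4 groups together, the unadjusted and adjusted p of edgeR were 0.0307 and 0.409 for Nr4a1, 0.0955 and 0.488 for Nr4a2, and 0.0126 and 0.388 for Nr4a3. Without DXM 3 they were 0.0991 and 0.757 for Nr4a1, 0.280 and 0.813 for Nr4a2, and 0.0797 and 0.757 for Nr4a3. In the test with all 12 libraries 11.5% of all genes had an unadjusted p under 0.05 and 0% passed after adjustment, as in each comparison that follows.

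Model against control asks what DSS did. Nr4a1 was lower in all 3 model libraries than in any control library, with a log2 fold change of -1.01 (SE 0.79, 95% interval -2.73 to 0.72) and an adjusted p of 0.707 by edgeR. An exact permutation test, two-sided, gave p = 0.1, the smallest that 3 against 3 libraries allow. Here and in the other comparisons with model, this test and the shares without overlap count model 1 and model 2 separately. Of all genes tested, 6.61% were lower in this non-overlapping way. The difference was -0.68 without control 3 and -1.003 with model 1 and model 2 summed into 1 library. Nr4a3 leaned the other way, with a log2 fold change of 0.85 (SE 0.94, adjusted p 0.796), and Nr4a2 had -0.17 (SE 0.73, adjusted p 0.956), with overlapping groups in both cases. In the fit of all 12 libraries, 9.62% of all genes (1626 of 16904) had an unadjusted p under 0.05, and none of the members did. With model 1 and model 2 summed, 866 of 17346 genes had one. With edgeR on only control and model, Nr4a1 had -1.01 (SE 0.30, unadjusted p 0.0106, adjusted p 0.401). In that fit 1581 of 15936 genes had an unadjusted p under 0.05. DESeq2 on those groups gave Nr4a1 -1.05, with an unadjusted p of 0.00278 and an adjusted p of 0.114. Both fits count model 1 and model 2 separately. For Nr4a2 the sign turned without control 1 (0.18) and without model 2 (0.08).

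Rhy against model bears on the pathway that the study proposed. Nr4a1 was higher in Rhy 2 and Rhy 3 than in every model library and lower in Rhy 1 than in every model library. The log2 fold change was 1.38 (SE 0.80, 95% interval -0.35 to 3.12), with an unadjusted p of 0.108 and an adjusted p of 1.00 by edgeR, and p = 0.4 in the exact permutation test. The value ran from 0.70 without Rhy 3 to 1.81 without Rhy 1, and was 1.38 with model 1 and model 2 summed. Nr4a2 had a log2 fold change of 0.86 (SE 0.72, 95% interval -0.72 to 2.44) and Nr4a3 of 1.18 (SE 0.91, 95% interval -0.80 to 3.16), each with an adjusted p of 1.00. Without Rhy 3 these were 0.37 and 0.34. In the fit of all 12 libraries, 3.72% of all genes had an unadjusted p under 0.05, and none of the members did. The intervals reach from a decrease to a several-fold increase, so differences of that size were not resolved in this fit. Its spread is estimated from all groups, DXM 3 included. With edgeR on only Rhy and model, Nr4a1 had 1.39 (SE 0.54, unadjusted p 0.0348, adjusted p 0.856). In that fit 824 of 15890 genes had an unadjusted p under 0.05, and Nr4a2 (0.101) and Nr4a3 (0.146) did not.

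DXM against model gave larger differences. Nr4a1 was higher in all 3 DXM libraries than in any model library, as were 10.4% of all genes, with a log2 fold change of 2.71 (SE 0.83, 95% interval 0.90 to 4.51), an unadjusted p of 0.00680 and an adjusted p of 0.622 by edgeR, and p = 0.1 in the exact permutation test. Without DXM 3 it was 0.87 (adjusted p 1.00), and DXM 1 and DXM 2 still lay above the model libraries. Nr4a3 had a log2 fold change of 2.61 (SE 0.93, adjusted p 0.622) and Nr4a2 of 1.76 (SE 0.73, adjusted p 0.637), which without DXM 3 were 0.93 and 0.16. All 3 members had an unadjusted p under 0.05 by edgeR, against 7.69% of all genes. Without DXM 3 none of them did, with an unadjusted p of 0.131 for Nr4a1, 0.768 for Nr4a2 and 0.260 for Nr4a3.

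Against control, Nr4a3 showed the widest difference of the family. Every DXM library was above every control library, as for 9.77% of all genes, and the log2 fold change of DXM against control was 3.46 (SE 0.98, 95% interval 1.32 to 5.61), with an unadjusted p of 0.00428 and an adjusted p of 0.134 by edgeR, and p = 0.1 in the exact permutation test. Without DXM 3 it was 1.79 (adjusted p 0.522). In this comparison 18.9% of all genes had an unadjusted p under 0.05. DESeq2 on the same counts gave 3.43 with an adjusted p of 0.00567, so this call depended on the tool. Nr4a1 had 1.70 (SE 0.80, adjusted p 0.275) and Nr4a2 1.59 (SE 0.73, adjusted p 0.266), and without DXM 3 both were near 0, at -0.13 and -0.02.

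Rhy against control gave a log2 fold change of 0.38 for Nr4a1 (adjusted p 0.879), 0.69 for Nr4a2 (adjusted p 0.728) and 2.03 for Nr4a3 (SE 0.95, unadjusted p 0.0535, adjusted p 0.440), while 11.6% of all genes had an unadjusted p under 0.05. Without Rhy 3 these values were -0.31, 0.20 and 1.19. DXM against Rhy gave 1.32, 0.90 and 1.43 for Nr4a1, Nr4a2 and Nr4a3, each with an adjusted p of 0.830 by edgeR, beside 5.02% of all genes with an unadjusted p under 0.05. All 3 turned negative without DXM 3, at -0.51, -0.71 and -0.25. The 6 comparisons share groups, so their values are not independent of each other.

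**Figure D3:**
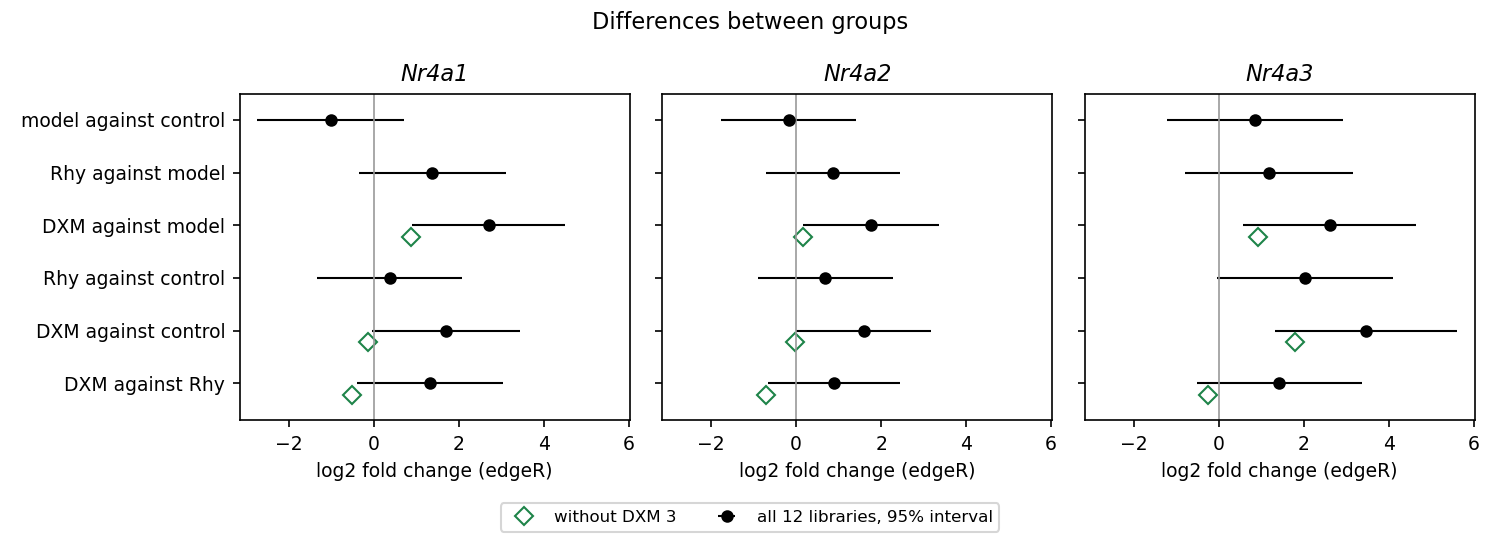
Log2 fold change of each member in the 6 comparisons of 2 groups, with the 95% interval of edgeR from all 12 libraries (black) and the value without DXM 3 (open green diamonds). The diamonds lie left of every black point they belong to, and those of DXM against Rhy lie below 0 for all 3 members.

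The balance between the members was also described within each library, where scaling cancels. The ratio of Nr4a1 to Nr4a3 in FPKM was 47.9, 32.5 and 37.6 in control, and 7.62, 10.7 and 18.1 in model. It was 17.2, 12.8 and 11.3 in Rhy, and 6.51, 22.01 and 11.6 in DXM. All 9 libraries from mice given DSS, at 6.51 to 22.01, lay below the 3 control libraries, at 32.5 to 47.9, DXM 3 and Rhy 3 included. This ratio was singled out after its values were seen and was not tested, and the low reads of Nr4a3 in control (12, 14 and 33) limit its precision. How many other gene pairs separate groups in this way was not counted, here or for the ratios that follow. The ratio of Nr4a1 to Nr4a2 overlapped between control (6.84 to 16.5) and the libraries with DSS (4.33 to 12.3), though DXM (9.95 to 12.3) lay above model (4.57 to 8.83). The ratio of Nr4a3 to Nr4a2 overlapped as well, at 0.143 to 0.439 in control and 0.252 to 1.53 with DSS, though DXM (0.463 to 1.53) lay above control.

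**Figure D4:**
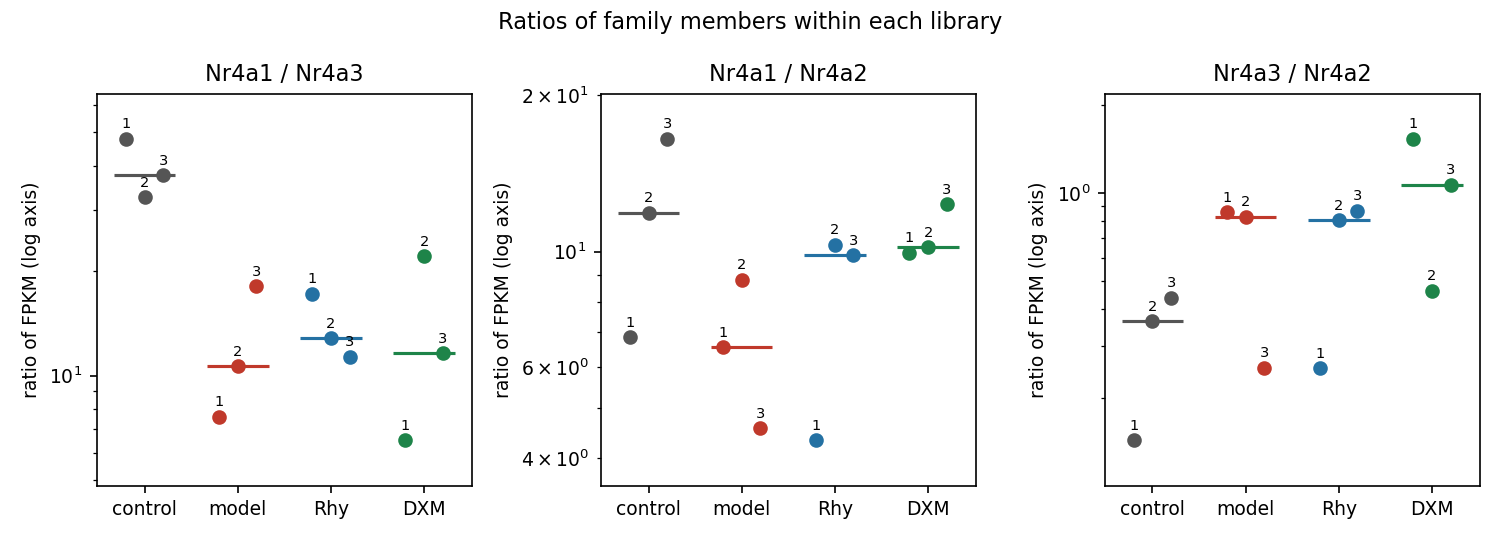
Ratios of family members within each library, from FPKM on a log axis, with the replicate number above each point and the group median as a line. In the ratio of Nr4a1 to Nr4a3 the 3 control points lie between 32.5 and 47.9 and all others at or below 22.01, whereas in the other panels the control points overlap with the 9 points of libraries with DSS as a whole.

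Other immediate early genes were compared as a list of 45 genes, of which 44 passed the filter and none is a family member. In model against control, 35 of the 44 were lower and 9 higher, with a median log2 fold change of -0.41 beside 0.01 over all genes. Of these, 10 were lower with an unadjusted p under 0.05, and 0 passed after adjustment. Of all genes, 4.51% were lower in that sense. These counts take model 1 and model 2 separately and were not recomputed with them summed. The farthest down were Egr1 (-1.74, SE 0.61, adjusted p 0.479), a zinc finger transcription factor, and Cyr61 (-1.71, SE 0.59, adjusted p 0.479), a matrix protein. The farthest up were Fosl1 (1.43, SE 0.89) and Nfil3 (1.16, SE 0.63), both leucine zipper factors. Nr4a1, at -1.01, thus lay on the side of most of the list, and Nr4a3 did not.

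In Rhy against model, 31 of the 44 were higher and 13 lower, with a median of 0.22 beside -0.01 over all genes and 0 past either threshold. Fosb, a partner of Jun proteins, had 1.27 (SE 0.81), Cyr61 had 1.19 (SE 0.58), and at the other end Egr2 had -0.98 (SE 0.76) and the phosphatase gene Dusp2 had -0.77 (SE 0.81). In DXM against model, 36 were higher, 9 with an unadjusted p under 0.05 (4.89% of all genes), and the median was 0.40. Without DXM 3, 30 were higher and 14 lower, 2 of them higher with an unadjusted p under 0.05 (2.22% of all genes) and 1 lower, and the median was 0.20. The list thus leaned the same way with and without DXM 3, by less without it.

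By library, the mean log2 CPM of the 44 genes was 4.94, 4.94 and 4.88 in control, and 4.62, 4.60 and 4.52 in model. It was 4.14, 4.92 and 4.94 in Rhy, and 5.02, 4.61 and 5.56 in DXM. DXM 3 was highest and Rhy 1 lowest, and the model libraries lay below the control libraries. DXM 3 was the highest library for 17 of the 44 genes, Fos, Fosb, Egr2, Egr3 and Dusp1 among them, against 11.8% of all genes. Rhy 1 was the lowest library for 15 of the 44, against 14.2% of all genes, and DXM 2 for 14, against 4.32%. Fos, for instance, was at 421 CPM in DXM 3 and at 102 to 302 CPM elsewhere.

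Across libraries, with model 1 and model 2 summed into 1 (n = 11), the list mean had a Pearson r of 0.85 with Nr4a1 (Spearman rho 0.66), 0.65 with Nr4a2 (rho 0.44) and 0.71 with Nr4a3 (rho 0.43). Without DXM 3 (n = 10) these r values were 0.71, 0.19 and 0.43. Between members, r was 0.88 for Nr4a1 and Nr4a2, 0.84 for Nr4a1 and Nr4a3 and 0.80 for Nr4a2 and Nr4a3, and 0.63, 0.63 and 0.50 without DXM 3. These are descriptions, since the points share groups and a scaling, and each r was lower without DXM 3.

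**Figure D5:**
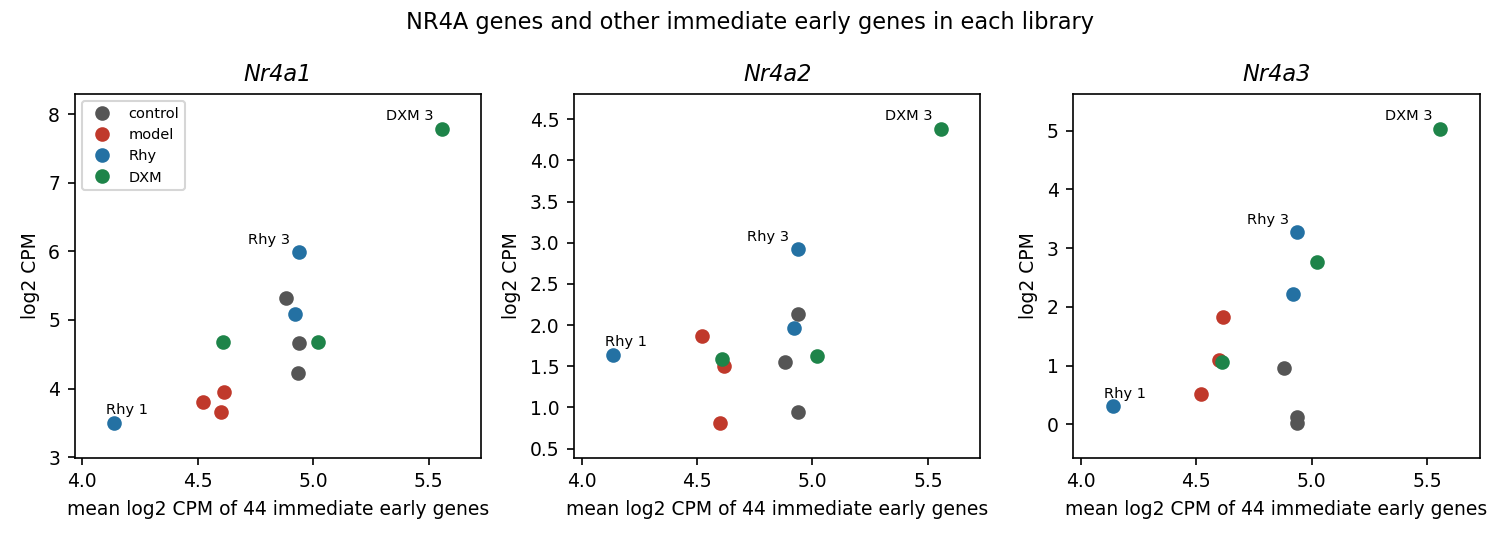
Level of each member against the mean level of the 44 other immediate early genes, both in log2 CPM, 1 point per library, coloured by group. DXM 3 is at the upper right in every panel (list mean 5.56) and Rhy 1 at the left (4.14), and the points between them are ordered more clearly for Nr4a1 than for Nr4a2.

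In model against control and in Rhy against model, lists of regulators, partners and targets of the family had medians near 0. Some medians in other comparisons were farther from 0. In DXM against control they were -0.23 for partners and 0.18 for targets, beside 0.06 over all genes. Without DXM 3 these were -0.22 and 0.21, beside 0.04. In a list of 29 regulators of NR4A genes (CREB and MEF2 factors, kinases, calcineurin and class II histone deacetylases), the median log2 fold change was 0.05 in model against control and 0.01 in Rhy against model. In Rhy against model, Crem, a CREB relative, had 0.72 (SE 0.32, unadjusted p 0.0469, adjusted p 1.00) and the calcineurin-dependent factor Nfatc2 had 0.46 (SE 0.55). Mef2b had -2.01 (SE 1.05), with 0 reads in Rhy 1, and Mef2d -0.35 (SE 0.18). In model against control the extremes were Mef2b (0.67, SE 1.00) and Elk1 (0.42, SE 0.35) on the higher side, and Hdac5 (-0.54, SE 0.35) and the kinase gene Mapk3 (-0.39, SE 0.30) on the lower.

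Crem was 8.48, 10.9 and 14.5 CPM in Rhy and 6.01, 8.07 and 6.61 CPM in model. All 3 Rhy libraries thus lay above all model libraries, as for 5.51% of all genes.

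In a list of 19 partners of NR4A proteins, the median was -0.01 in model against control and 0.02 in Rhy against model. Trim28, a corepressor, had 0.52 (SE 0.22, adjusted p 0.495) in model against control, against Cdkn1c (-0.53, SE 0.57) and the retinoid receptor gene Rxra (-0.47, SE 0.41). In Rhy against model the extremes were Rxrg (1.52, SE 0.76) on the higher side and Kdm1a (-0.23, SE 0.17) and Stk11 (-0.23, SE 0.22) on the lower.

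In a list of 28 genes described as NR4A targets in various tissues, 21 passed the filter, and the median was -0.06 in model against control and -0.08 in Rhy against model. E2f1, a cell cycle transcription factor, had the largest value in model against control (1.70, SE 0.42, unadjusted p 0.00180, adjusted p 0.459). E2f1 was 2.995, 3.20 and 6.70 CPM in control and 14.7, 15.7 and 11.7 CPM in model, with no overlap, as for 10.4% of all genes on the higher side. It was followed by Fabp4 (1.20, SE 0.79), with Ctla4 (-0.95, SE 0.67) and Pdk4 (-0.90, SE 0.99) at the other end. In Rhy against model, Eno3 had 0.92 (SE 0.86) and Fbp1 0.65 (SE 0.74), and Spp1 had -0.82 (SE 0.89) and the monoamine transporter gene Slc18a2 -0.67 (SE 0.26, unadjusted p 0.0261, adjusted p 1.00).

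Among the 37 tested nuclear receptors outside the family, 27 were lower and 10 higher in model against control (median -0.29, beside 0.01 over all genes). Of these, 5 were lower with an unadjusted p under 0.05 by edgeR, against 4.51% of all genes. Model 1 and model 2 were counted separately here as well. Nr1d1, the circadian repressor REV-ERB alpha, had -1.46 (SE 0.45, adjusted p 0.459) and the fatty acid receptor Ppara -1.50 (SE 1.03), while Esrrg had 1.24 (SE 1.06) and the photoreceptor gene Nr2e3 0.49 (SE 1.35). In Rhy against model the median was 0.01, with Rxrg (1.52) and Esrrg (1.23, SE 1.00) highest and Nr5a2 (-0.51, SE 0.46) and Rarb (-0.48, SE 0.85) lowest. Over all 5 lists and 6 comparisons, 0 genes passed the adjusted threshold of edgeR, as for all genes.

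The genes whose pattern was most like each member were ranked by Pearson r of log2 CPM over the 12 libraries. For Nr4a1 they included Thbs1 (r = 0.94), thrombospondin, 6530402F18Rik (0.93), Clec4d (0.92), a myeloid lectin, and Bdkrb1 (0.91), a bradykinin receptor. For Nr4a2 they were the tetraspanin gene Cd63 (0.94), its pseudogene Cd63-ps (0.92), whose reads cannot be separated from those of Cd63 with certainty, Ubtf (0.91), Thbs1 (0.89) and Nr4a1 (0.88). For Nr4a3 they were Rnf180 (0.95), a ubiquitin ligase, Tubb6 (0.94), a tubulin, Tnfaip6 (0.94), a hyaluronan-binding protein, Cavin1 (0.94), a caveolar coat protein, and Zeb2 (0.92), a mesenchymal transcription factor.

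Thbs1 was 41.3, 16.5 and 67.2 CPM in control, and 23.7, 24.6 and 27.1 CPM in model. It was 20.5, 41.3 and 75.03 CPM in Rhy, and 20.5, 38.7 and 269.8 CPM in DXM. As with Nr4a1, DXM 3 was highest and Rhy 3 next, whereas the control and model libraries overlapped. Without DXM 3, 1 of the 5 genes stayed among the top 5 for Nr4a1 and 1 for Nr4a2 (Cd63, r = 0.83). For Nr4a3, 2 stayed (Rnf180, 0.94, and Cavin1, 0.91). The genes named above for Nr4a1 moved to ranks 22 (Thbs1, r = 0.83), 36 (6530402F18Rik), 16 (Clec4d) and 59 (Bdkrb1). Nr4a2 was at rank 9 of 16903 genes for likeness to Nr4a1 with all libraries and at rank 290 without DXM 3.

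Some lists of cell type markers were high in the libraries in which the members were high, and others were not. DXM 3 was the highest library for 7 of 8 smooth muscle, 4 of 5 fibroblast and 3 of 5 endothelium markers, against 11.8% of all genes. It was also the highest for 4 of 5 macrophage and 3 of 4 neutrophil markers. It was the highest for 1 of 5 T cell markers and for 1 of 4 each of the B cell, plasma cell and mast cell markers. It was the highest for 0 of 10 colon epithelium, 0 of 7 enteric neuron and glia and 0 of 4 fat cell markers. Over all genes tested the share was 11.8%, and lists this short cannot tell a count of 0 or 1 from it. Rhy 3, the library next to DXM 3 for every member, ranked 2 of the 12 libraries by summed fibroblast markers, 4 by endothelium and by macrophage markers, 5 by smooth muscle and 6 by neutrophil markers.

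The summed fibroblast markers were 431 to 727 CPM in control, 362 to 422 CPM in model, 280 to 1315 CPM in Rhy and 679 to 1499 CPM in DXM. Rhy 1 was the lowest and DXM 3 and Rhy 3 the highest libraries, as for Nr4a1. The summed macrophage markers were 67.7 to 175 CPM in control, 61.3 to 68.9 CPM in model, 22.7 to 127 CPM in Rhy and 75.1 to 192 CPM in DXM, again with Rhy 1 lowest and DXM 3 highest.

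The summed smooth muscle markers were 3164 to 6104 CPM in control, 3558 to 4626 CPM in model, 5484 to 6356 CPM in Rhy and 4927 to 8891 CPM in DXM. The summed epithelium markers were 21220 to 35045 CPM in control, 17038 to 26965 CPM in model, 18267 to 26110 CPM in Rhy and 11037 to 24649 CPM in DXM, where the lowest value is DXM 3. DXM 3 was thus highest for smooth muscle and lowest for epithelium, while Rhy 3 was at rank 5 and rank 6.

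The summed enteric neuron and glia markers were 35.4 to 130 CPM over the 12 libraries, with Rhy 3 lowest and DXM 3, at 62.8 CPM, at rank 10. The summed neutrophil markers were highest in control 1 (687 CPM), and DXM 3, at 282 CPM, ranked 3. By the summed T cell, B cell, plasma cell, mast cell and fat cell markers, DXM 3 ranked 2, 5, 1, 5 and 4, and Rhy 3 ranked 7, 10, 5, 11 and 9. These lists thus did not share the order of the members, in which DXM 3 and Rhy 3 come first.

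Of 5 pancreatic acinar markers 1 passed the filter, Cela1, an elastase, and Cpa1 had no count in any library. Their sum was 51.9 to 92.3 CPM in control, 73.7 to 188 CPM in model, 95.5 to 191 CPM in Rhy and 156 to 288 CPM in DXM. DXM 3 was highest and Rhy 3 next, as for the members. Rhy 3, at 191 CPM, was however close to model 2, model 1 and Rhy 2, at 188, 188 and 187 CPM. In bulk tissue, fewer cells of a type and less RNA per cell cannot be told apart, and the part that these markers play in the members' levels was not tested.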

How the data were processed

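RNA-Seq libraries were made by the authors from mRNA of colonic tissue and sequenced on the HiSeq X10 system. The submitters' processing notes list HISAT2 2.0.5, featureCounts 1.5.0-p3, DESeq2 1.16.1 and mm10, without parameters or strand setting. The authors deposited whole-number counts of reads per gene, not normalized, and FPKM values. All 262985 deposited FPKM values above 0 equalled count per gene length times 1 constant per library, within 0.1%. The RNA-Seq section of the paper's methods lists control, model and Rhy mice, and the labels add the sequenced DXM group. Groups came from the treatment labels, and 0 columns fell outside the sample list.

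The counts were fitted with edgeR 4.0.16 under R 4.3.3 (filterByExpr at a minimum count of 10, TMM, glmQLFit and glmQLFTest, all 12 libraries in 1 fit, two-sided, Benjamini-Hochberg over all genes tested, threshold 0.05). CPM carries no prior count, and log2 CPM a prior count of 2. The SE is the log2 fold change divided by the square root of F. The scripts were tested on simulated counts. Alternatives were RLE and upper-quartile scaling, no filter beyond a gene having a count, a fit of just the compared groups, a replicate block, DESeq2 1.42.0, limma 3.58.1 on log2(FPKM + 1), also unfiltered, and on log2(FPKM + 0.1), model 1 and model 2 summed, and each library left out. DESeq2 on only the groups compared, and the likeness and the gene lists without DXM 3, were added after seeing the data. Intervals from reads cover counting error only.

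The members and gene lists (written from general knowledge) were chosen with earlier results of these data known. The genes named are the members, the 5 genes most like each in log2 CPM over the 12 libraries, per list any gene past the threshold and otherwise the 2 largest rises and 2 largest falls in model against control and in Rhy against model, the 3 receptors of highest mean FPKM, and markers that check the tissue. Some genes that this rule names are not reported here. Fos, Egr3 and Dusp1 were named after their values were seen. Motifs were searched in RefSeq promoters.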

Additional observations from a re-analysis of the deposited data

How the results depend on the processing

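The 18 comparisons of a member between 2 groups and the 3 tests across the 4 groups were recomputed under 365 alternatives with an adjusted p. Of these, 354 kept the direction and the side of the threshold, 8 reversed and 3 passed the threshold. All 8 reversals came from leaving out 1 library, and the cause was not tested. Over the libraries left out, Nr4a2 in model against control ran from -0.48 to 0.18, with 0.18 without control 1 and 0.08 without model 2, and Nr4a1 in Rhy against control ran from -0.31 (without Rhy 3) to 0.80. In DXM against control, Nr4a1 ran from -0.13 to 2.14 and Nr4a2 from -0.0155 to 2.01. In DXM against Rhy, Nr4a1 ran from -0.51 to 2.01, Nr4a2 from -0.71 to 1.38 and Nr4a3 from -0.25 to 2.27. The lowest value in each of these DXM comparisons was that without DXM 3. With 1 library of a group left out, the remaining 2 share the spread estimated from all groups.

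The 3 results past the threshold came from DESeq2: Nr4a3 in DXM against control with all 12 libraries (log2 fold change 3.43, adjusted p 0.00567) and with only the 2 groups (3.41, adjusted p 0.00393, an alternative chosen after seeing the data), and Nr4a3 across the 4 groups (adjusted p 0.0216). Over the alternatives with no library left out, edgeR and limma gave Nr4a3 in DXM against control an adjusted p of 0.0684 to 0.387. Where the main edgeR fit called 0 genes, DESeq2 on all 12 libraries called 46 in model against control. It called 5 in Rhy against model, 53 in DXM against model and 33 in Rhy against control. It also called 1058 in DXM against control, 9 in DXM against Rhy and 407 across the 4 groups. On only the groups compared it called 167, 45, 589, 2, 385 and 24 in the same order of comparisons. limma on log2(FPKM + 0.1) called 2 in Rhy against model, 2 in DXM against model and 3 across the groups. Unfiltered limma called 1 in DXM against model. With no filter beyond a gene having a count, edgeR called 1 in model against control and 1 in Rhy against control. It also called 13 in DXM against control and 12 across the groups. On only the groups compared, edgeR called 1 in model against control and 2 in DXM against model. At an unadjusted p under 0.05, the main edgeR fit had 1626, 628, 1300, 1953, 3189 and 848 genes, in the order used for DESeq2. DESeq2 on only the groups compared had 1746 in model against control and 1021 in Rhy against model. The paper gives the same numbers of differentially expressed mRNAs for these comparisons. For Nr4a1 in Rhy against model, DESeq2 on only the 2 groups gave 1.40, with an unadjusted p of 0.00517 and an adjusted p of 0.467. DESeq2 gave no p-value for Nr4a1 in DXM against model and DXM against control on only those groups, and no adjusted p for Nr4a2 and Nr4a3 in model against control on all libraries.

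The labels do not say whether equal replicate numbers mark samples handled together, and correlations within groups of 3 cannot decide it. The deviations of the 18 same-numbered pairs had correlations of -0.31 to 0.36, only 6 of them over 0.1, and 5 of 12 libraries correlated best with their own number. With the replicate number as a block in edgeR, Nr4a1 had a log2 fold change of 1.02 in Rhy against model (adjusted p 0.994). In DXM against model Nr4a1 had 1.99 (adjusted p 0.664), against 2.71 without the block. Nr4a3 had 3.04 in DXM against control (adjusted p 0.135), and the block changed no call of a member. Summing model 1 and model 2 changed no call or direction either.

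Likeness to a member moved with the measure and the library. With Spearman's rho, 1 of the top 5 genes was shared with Pearson's r for each member. Depth limits Nr4a2 and Nr4a3 most, with as few as 26 and 12 reads in a library.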
